A study of Homo sapiens with 2 samples.

Results

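The BCL2 family was examined in RC77 T/E and MDA PCa 2b, 2 established human prostate cancer (PCa) lines. The members were chosen by name and not by a threshold on their values, as 5 anti-apoptotic genes (BCL2, BCL2L1, BCL2L2, MCL1 and BCL2A1) and 5 pro-apoptotic genes (BAX, BAK1, BCL2L11, BID and PMAIP1). Of these 10 genes, 9 were analysed out of 21382 genes in the deposited table, and MCL1 was not analysed here. MDA PCa 2b is a line from a bone metastasis of PCa and was kept in a serum-containing F-12 medium with cholera toxin, epidermal growth factor, phosphoethanolamine, hydrocortisone, selenite and insulin. RC77 T/E is a line of prostate tumor epithelium and was kept in serum-free keratinocyte medium with pituitary extract of cattle and epidermal growth factor. Both were untreated, with no platelets added, so the values describe the lines before any contact with platelets, whose effect on caspase activity was a question of the study. RNA-Seq of total RNA gave 1 library for each. There is thus no replicate error for any value, no difference has a replicate check, no p-value is given, and the cell line, its medium and its library cannot be told apart.

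Proteins of the BCL2 family decide whether the outer membrane of mitochondria stays intact. BAX and BAK1 are the effectors that open it and let cytochrome c out to start the caspase cascade. The anti-apoptotic proteins hold the effectors in check, and the BH3-only proteins, which share only the short BH3 helix with the rest of the family, bind into a groove of the anti-apoptotic proteins or engage the effectors directly. Some drugs that mimic a BH3 helix are aimed at single anti-apoptotic members. The set of members that a cancer cell transcribes is therefore of practical interest.

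The BH3 helix is the feature that joins both sides of the family, so the bases that encode its core are shown for the members in which they were found. They were read from the coding sequences of GENCODE release 29 on GRCh38 by a search for a codon of leucine or methionine, any 3 codons, a glycine codon and an aspartate codon, with 5 codons on each side. The capitals mark the leucine or methionine codon and the glycine and aspartate codons.
BCL2: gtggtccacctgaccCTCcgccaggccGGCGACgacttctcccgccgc
BCL2L1: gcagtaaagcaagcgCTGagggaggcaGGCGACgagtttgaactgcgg
BCL2L2: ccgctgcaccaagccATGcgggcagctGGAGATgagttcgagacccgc
BAX: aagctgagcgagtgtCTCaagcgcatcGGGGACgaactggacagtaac
BAK1: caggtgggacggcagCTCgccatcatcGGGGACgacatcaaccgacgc
BCL2L11: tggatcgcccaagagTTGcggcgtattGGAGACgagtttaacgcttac
BID: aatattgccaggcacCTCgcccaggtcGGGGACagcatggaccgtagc
PMAIP1: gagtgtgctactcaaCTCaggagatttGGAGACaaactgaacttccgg

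Each of these 8 members held exactly 1 such core in its coding sequence. BCL2A1, of 175 codons, held 0 by these letters, which says nothing about the rest of its BH3 helix. Positions are given for the whole stretch shown, that is the core with its flanking codons. The stretch of BCL2 lies in exon 2 at chr18:63318346-63318393 on the minus strand. That of BCL2L1 lies in exon 2 at chr20:31721919-31721966 on the minus strand, and that of BCL2L2 in exon 3 at chr14:23307888-23307935 on the plus strand. The stretch of BAX lies in exon 3 at chr19:48955772-48955819 on the plus strand. That of BAK1 lies in exon 4 at chr6:33575384-33575431 on the minus strand. Among the BH3-only members, the stretch of BCL2L11 lies in exon 4 at chr2:111150088-111150135 on the plus strand. That of BID lies in exon 4 at chr22:17739412-17739459 on the minus strand, and that of PMAIP1 in exon 2 at chr18:59902658-59902705 on the plus strand. The stretch is present in every annotated coding transcript of BCL2 (3), BAK1 (3) and PMAIP1 (2), in 8 of 9 of BCL2L1, 4 of 6 of BCL2L2, 4 of 7 of BAX, 5 of 11 of BID and 7 of 17 of BCL2L11. The deposited values are 1 per locus, so isoforms with and without the stretch cannot be told apart.

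Expression is given as TPM, the share of all transcripts of a library after correction for gene length, so that levels of different genes can be set side by side. TPM keeps no record of read numbers, and the depth of each library is therefore unknown. Many deposited values at or above 1 TPM had lost their decimal mark, namely those written with 3 decimals or more. The mark was put back with the mean and standard error that the table also lists, which fixed it for BCL2, BCL2A1 and PMAIP1, and for the other 6 members the position was taken from the supplementary table of the study. Differences are given as folds of TPM and as a log2 ratio, in which 1 TPM was added to each value and RC77 T/E was divided by MDA PCa 2b. The median of this log2 ratio over the 11624 genes whose mean reached 1 TPM was -0.15, and a ratio relative to that median is called centred.

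The labelled origin of the lines was checked on marker genes. All 4 epithelial markers (EPCAM, KRT8, KRT18 and CDH1) were at 1 TPM or more in both lines. Of 4 markers of prostate luminal cells, 4 reached 1 TPM in MDA PCa 2b but 1 in RC77 T/E, where KLK3 and KLK2 are listed at 0. Of 3 basal markers, 3 reached 1 TPM in RC77 T/E and 1, KRT14, in MDA PCa 2b. Both endothelial and all 3 platelet markers were under 1 TPM in both lines, and of 2 fibroblast markers COL1A1 reached 8.24 TPM in RC77 T/E.

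Among the anti-apoptotic members, BCL2L1 and BCL2L2 were high in both lines, while BCL2 and BCL2A1 were low and were each above 1 TPM in a different line. BCL2L1, which encodes BCL-XL, was at 57.6 TPM in MDA PCa 2b against 104.0 TPM in RC77 T/E, 1.81-fold higher in RC77 T/E, with a log2 ratio of 0.84 and a centred ratio of 0.99. BCL2L2, which encodes BCL-W, was at 72.6 TPM in MDA PCa 2b against 81.7 TPM in RC77 T/E, a 1.12-fold difference. BCL2L2 was thus the highest of the 9 members in MDA PCa 2b, whereas BCL2L1 was so in RC77 T/E, and the ratio of BCL2L1 to BCL2L2 was 0.793 in MDA PCa 2b against 1.27 in RC77 T/E. This order rests on 1 library per line. Reads of the read-through gene BCL2L2-PABPN1 cannot be separated from those of BCL2L2 by strand.

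**Figure D1:**
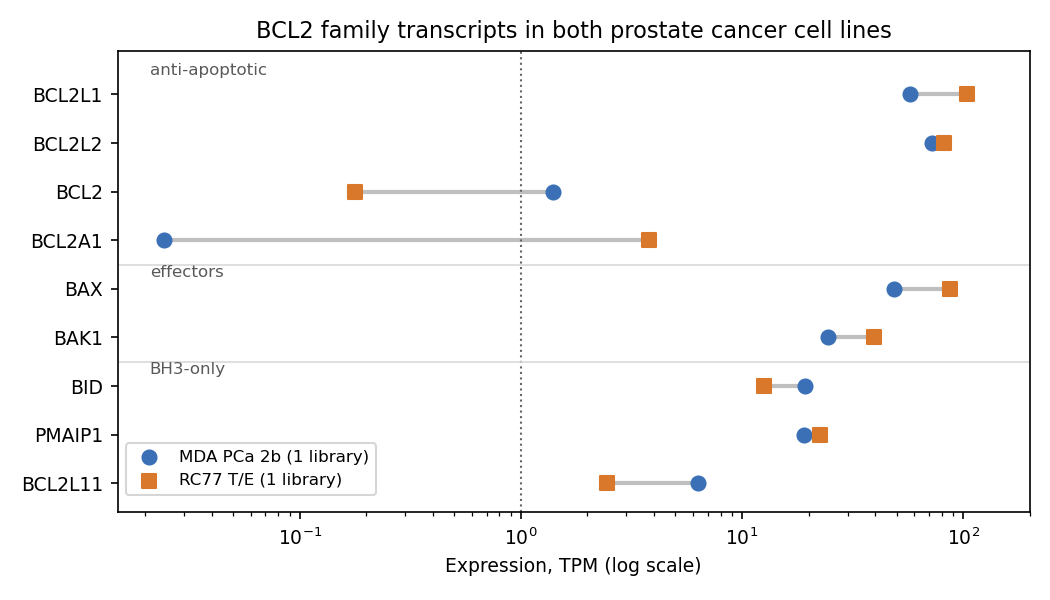
Expression of the 9 members analysed in TPM on a log axis, with 1 point per library (circles MDA PCa 2b, squares RC77 T/E) and a dotted line at 1 TPM. BCL2L1, BCL2L2, BAX and BAK1 lie furthest to the right in both lines, and BCL2 and BCL2A1 cross the line at 1 TPM in opposite directions.

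BCL2, the founding member of the family and the target of venetoclax, was at 1.39 TPM in MDA PCa 2b against 0.178 TPM in RC77 T/E. It was 7.82-fold higher in MDA PCa 2b, and its mean of both lines stayed under 1 TPM. With 1 TPM added to both values the log2 ratio was -1.02, and with 0.1 TPM added it was -2.42. BCL2L1 exceeded BCL2 by 41.4 times in MDA PCa 2b, and by 585 times in RC77 T/E, both on the TPM scale. The latter ratio and the 7.82-fold difference rest on the low value of 0.178 TPM, whose precision is unknown.

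BCL2A1, which encodes BFL-1 and is known as an NF-kappaB target of blood cells, was at 0.0244 TPM in MDA PCa 2b against 3.79 TPM in RC77 T/E. The fold of 155 rests on a value near 0 whose precision is unknown. The log2 ratio was 2.23, and it was 4.97 with 0.1 TPM added in place of 1. No other member had a higher log2 ratio, and 91.5% of the 11624 genes had a lower one. Markers of white blood cells were read beside it. Of 5 such markers, PTPRC and LYZ are listed at 0 in RC77 T/E and CD3E was at 0.0126 TPM there. Of the 5, CD14 alone reached 1 TPM, at 4.92 TPM in RC77 T/E and 0.0730 TPM in MDA PCa 2b, and the sum of the list was 0.586 TPM in MDA PCa 2b against 4.93 TPM in RC77 T/E. In a list of 6 NF-kappaB targets, TNFAIP3, TRAF1 and ICAM1 were higher by 2-fold or more in RC77 T/E and 0 were so in MDA PCa 2b, beside 19.4% and 20.1% of the 11624 genes. The list is not complete, and BIRC3, a further such target that stands in another list, was 4.43-fold higher in MDA PCa 2b. TNFAIP3 was 8.95-fold, TRAF1 9.77-fold and ICAM1 31.8-fold higher in RC77 T/E. The other 3 targets, NFKBIA, RELB and NFKB2, differed by less than 2-fold. The part of these genes in the level of BCL2A1 was not tested.

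The effectors were both higher in RC77 T/E, by less than 2-fold. BAX was at 48.7 TPM in MDA PCa 2b against 87.1 TPM in RC77 T/E, 1.79-fold higher in the latter, with a log2 ratio of 0.82. BAK1 was at 24.4 TPM in MDA PCa 2b against 39.6 TPM in RC77 T/E, 1.63-fold higher, with a log2 ratio of 0.68. Their sum was 73.1 TPM in MDA PCa 2b against 126.7 TPM in RC77 T/E. BAX exceeded BAK1 by 2.00 times in MDA PCa 2b, and by 2.20 times in RC77 T/E. The ratio of BCL2L1, counted here with the anti-apoptotic side, to BAX was 1.18 in MDA PCa 2b against 1.19 in RC77 T/E. Both genes were thus higher in RC77 T/E by nearly the same factor. Each value covers all isoforms of its locus.

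The BH3-only members differed in both directions. BCL2L11, which encodes BIM, a binder of all anti-apoptotic members, was at 6.34 TPM in MDA PCa 2b against 2.45 TPM in RC77 T/E. It was 2.59-fold higher in MDA PCa 2b with a log2 ratio of -1.09, and its centred ratio of -0.94 fell short of 2-fold. BID, which links death receptors to mitochondria once caspase-8 has cut it, was at 19.2 TPM in MDA PCa 2b against 12.5 TPM in RC77 T/E, 1.53-fold higher in MDA PCa 2b. PMAIP1, which encodes NOXA, a binder of few anti-apoptotic members, was at 19.0 TPM in MDA PCa 2b against 22.6 TPM in RC77 T/E, 1.19-fold higher in the latter. The sum of these 3 genes was 44.6 TPM in MDA PCa 2b against 37.6 TPM in RC77 T/E, and the effectors exceeded it by 1.64 times in MDA PCa 2b, and by 3.37 times in RC77 T/E.

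The members were then set against all genes. A ratio of at least 2-fold toward RC77 T/E was reached by 1 of the 8 members with a mean of at least 1 TPM, BCL2A1, beside 19.4% of the 11624 genes. Toward MDA PCa 2b it was reached by 1 of 8, BCL2L11, beside 20.1% of the genes. Neither share exceeds that of all genes. After centring, BCL2L11 no longer counted, so the numbers were 1 toward RC77 T/E and 0 toward MDA PCa 2b, beside 21.9% and 16.4% of the genes. With every unplaced decimal mark at its highest position the shares of all genes were 21% and 22.8%. Of the 9 members, 6 were higher in RC77 T/E (BCL2L1, BCL2L2, BCL2A1, BAX, BAK1 and PMAIP1) and 3 in MDA PCa 2b (BCL2, BCL2L11 and BID), beside 44.4% and 55.6% of the 11624 genes, and the same 6 lay above the median of all genes after centring. The median log2 ratio was 0.46 for the 8 members whose mean reached 1 TPM, beside -0.15 for the 11624 genes, and 0.23 with BCL2 included. The number of members at 1 TPM or more was 8 of 9 in each line, beside 49.6% of all genes in MDA PCa 2b, or 52.8% in RC77 T/E. The member below 1 TPM was BCL2A1 in MDA PCa 2b, whereas it was BCL2 in RC77 T/E.

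**Figure D2:**
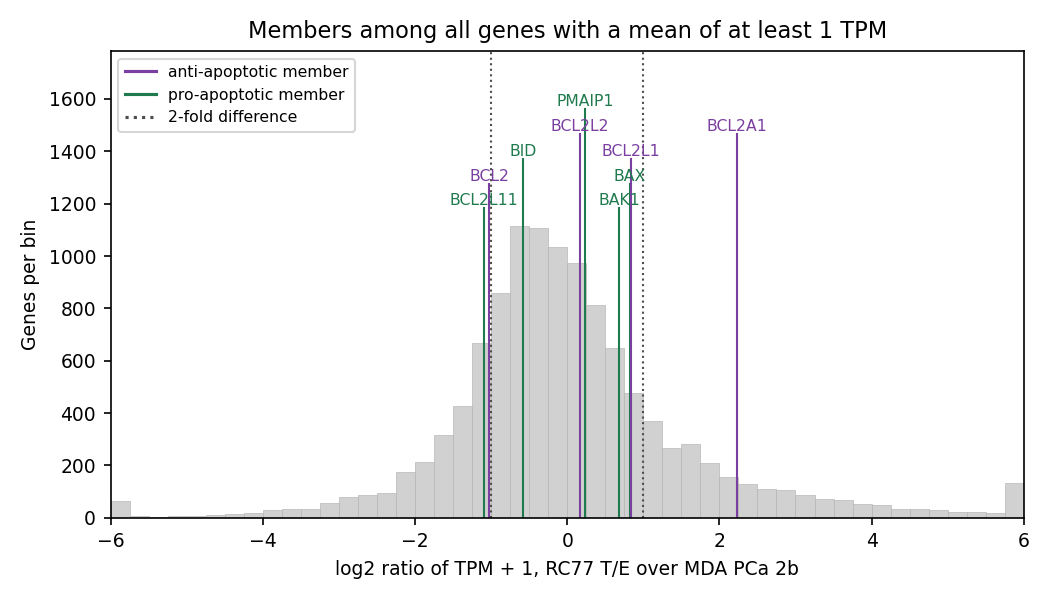
Histogram of the log2 ratio of TPM plus 1, RC77 T/E over MDA PCa 2b, for the 11624 genes whose mean reached 1 TPM, in bins of 0.25 with all values beyond the axis in the outermost bins. Vertical lines give the 9 members (BCL2, below that mean, is drawn but not counted), of which BCL2A1 at 2.23, BCL2L11 at -1.09 and BCL2 at -1.02 lie past the dotted lines at 2-fold.

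Summed over the 4 anti-apoptotic members analysed, the level was 131.6 TPM in MDA PCa 2b against 189.6 TPM in RC77 T/E, 1.44-fold higher in RC77 T/E. BCL2L1 and BCL2L2 made up 98.9% of this sum in MDA PCa 2b against 97.9% in RC77 T/E. The share of BCL2L1 was 43.7% in MDA PCa 2b against 54.8% in RC77 T/E, and that of BCL2A1 was 0.0186% and 2.00%. The 5 pro-apoptotic members summed to 117.7 TPM in MDA PCa 2b against 164.3 TPM in RC77 T/E, 1.40-fold higher in RC77 T/E. BAX held 41.4% of this sum in MDA PCa 2b against 53.0% in RC77 T/E, and the BH3-only members 37.9% and 22.9%. The ratio of the anti-apoptotic to the pro-apoptotic sum was 1.12 in MDA PCa 2b against 1.15 in RC77 T/E. This ratio leaves out MCL1 and counts transcripts, not protein.

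**Figure D3:**
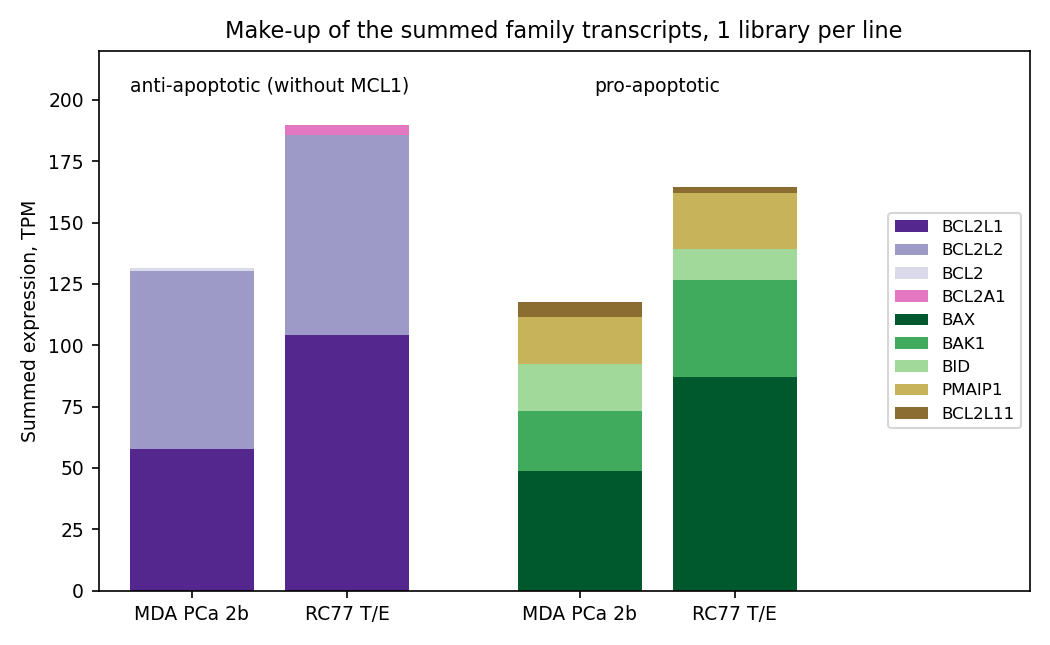
Summed TPM of the anti-apoptotic members without MCL1 (left pair of bars) and of the pro-apoptotic members (right pair), stacked by gene, with 1 library per bar. Both sums are higher in RC77 T/E, at 189.6 against 131.6 TPM and 164.3 against 117.7 TPM, and the BCL2L1 and BAX segments are taller there.

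The ratio of the sums depended on which family members were counted. Further members of the family were taken from a list of 6 genes (BOK, BCL2L10, BAD, BIK, BMF and HRK). BAD, a BH3-only binder of BCL-XL, was at 81.3 TPM in MDA PCa 2b against 28.9 TPM in RC77 T/E, 2.81-fold higher in MDA PCa 2b and above all 9 members there. BIK was at 18.3 TPM in MDA PCa 2b against 5.16 TPM in RC77 T/E, 3.56-fold higher in MDA PCa 2b. BMF was at 2.44 and 0.740 TPM and HRK at 0.653 and 0.0439 TPM, in the same order. Thus 6 of the 7 BH3-only genes listed here, PMAIP1 excepted, had the higher value in MDA PCa 2b, beside 55.6% of the 11624 genes. The lists do not hold every BH3-only gene, and BBC3 is in none of them. Of these 6, BCL2L11, BAD and BIK reached 2-fold on the log2 scale, BID and BMF did not, and HRK had a mean under 1 TPM. The sum of the 7 listed genes was 147.3 TPM in MDA PCa 2b against 72.4 TPM in RC77 T/E. BOK, an effector-like member, was at 21.4 TPM in MDA PCa 2b against 10.8 TPM in RC77 T/E. BCL2L10, counted with the anti-apoptotic side, was at 0.0485 TPM in MDA PCa 2b against 2.35 TPM in RC77 T/E. At least 2-fold higher by the log2 ratio were BAD and BIK in MDA PCa 2b, with BCL2L10 alone in RC77 T/E. The shares of the 11624 genes were 20.1% and 19.4%. With these 6 genes added, the ratio of the anti-apoptotic to the pro-apoptotic sum was 0.545 in MDA PCa 2b against 0.915 in RC77 T/E. This ratio, too, leaves out MCL1, and it leaves out BBC3.

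The steps downstream and beside the family were described with lists of the pathway, in which the fold between the lines is known for every gene but the decimal mark of several could not be placed. For these, either all values that the table allows or the fold alone are given. Of 6 apoptosome and caspase genes, 1 was higher by 2-fold or more in RC77 T/E, with 2 in MDA PCa 2b. Beside this stand 19.4% and 20.1% of the 11624 genes. APAF1, the scaffold of the apoptosome, was at 2.00 TPM in MDA PCa 2b against 5.53 TPM in RC77 T/E, 2.77-fold higher in the latter. CYCS, which encodes cytochrome c, was 2.58-fold higher in MDA PCa 2b, at 6.13, 61.3 or 613 TPM there and 2.37, 23.7 or 237 TPM in RC77 T/E. CASP9, the initiator caspase of the apoptosome, was 2.42-fold higher in MDA PCa 2b, at 7.78, 77.8 or 778 TPM there and 3.22, 32.2 or 322 TPM in RC77 T/E.

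Of 6 genes for inhibitors of apoptosis and their mitochondrial antagonists, 2 were at least 2-fold higher in MDA PCa 2b against 0 in RC77 T/E. Over the 11624 genes the shares were 20.1% and 19.4%. BIRC3 was at 32.1 TPM in MDA PCa 2b against 7.25 TPM in RC77 T/E, opposite in direction to BCL2A1. BIRC2, its close relative, was at 47.4 TPM in MDA PCa 2b against 22.5 TPM in RC77 T/E, 2.11-fold higher in MDA PCa 2b. DIABLO, which encodes the antagonist SMAC, was at 31.5 TPM in MDA PCa 2b against 18.6 TPM in RC77 T/E. XIAP, BIRC5 and HTRA2 differed by less than 1.5-fold.

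Of 7 genes of the death receptor pathway, which feeds into the family through BID, 1 was higher by 2-fold or more in RC77 T/E, with 0 in MDA PCa 2b. Among the 11624 genes these shares were 19.4% and 20.1%. TNFRSF10B, a receptor for the ligand TRAIL, was 2.67-fold higher in RC77 T/E, at 3.88 or 38.8 TPM in MDA PCa 2b against 10.4 or 103.6 TPM in RC77 T/E. TNFRSF10A, the other such receptor, was 1.96-fold higher in RC77 T/E. CASP8, which cuts BID, was at 10.0 TPM in MDA PCa 2b against 11.6 TPM in RC77 T/E, and its inhibitor CFLAR was at 11.6 and 14.6 TPM. FADD, the adaptor between receptor and caspase, was at 20.0 and 21.7 TPM.

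**Figure D4:**
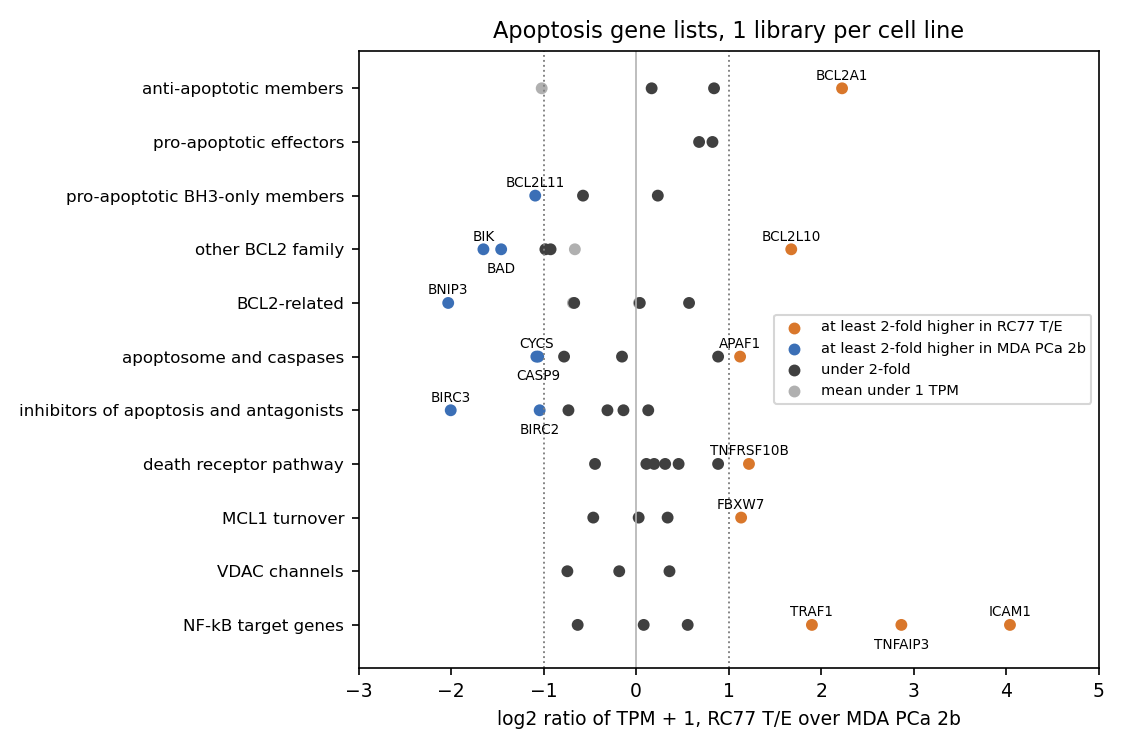
The log2 ratio of TPM plus 1, RC77 T/E over MDA PCa 2b, for each gene of the family and of the pathway lists, with unplaced decimal marks at their lowest position and 1 point per gene. Genes at least 2-fold apart are named and colored, and they lie on both sides of 0 with 7 of the 41 listed genes outside the members on each side.

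Over all 8 lists outside the members, 41 of the 44 genes analysed had a mean of at least 1 TPM, and 7 were higher by 2-fold or more in RC77 T/E, with 7 in MDA PCa 2b, beside the 19.4% and 20.1% of all genes. After centring, a choice made after the data were seen, these numbers were 9 and 4, beside 21.9% and 16.4% of all genes. TNFRSF10A and CASP6, both at a centred ratio of 1.04, then counted toward RC77 T/E, while CYCS at -0.93, CASP9 at -0.91 and BIRC2 at -0.89 no longer counted toward MDA PCa 2b. For CYCS and CASP9 this rests on the lowest position of the unplaced mark. At the highest position their centred ratios were -1.21 and -1.12, and the numbers were 9 and 6.

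The promoters of the members were compared as a feature that their choice did not use. In the 250 bases before each start in the RefSeq table for GRCh38.p14, the number of CG dinucleotides had a median of 11 over 35116 promoters. BCL2A1 had 2, and 14.7% of all promoters had fewer. PMAIP1 had 36, BCL2L11 34, BAX 25 and BCL2 24, BAK1 had 5, and BCL2L1 had 17 and 12 at its 2 listed starts. BID had from 4 to 30 over its 5 listed starts. BCL2L2 was not found in that table. The NF-kappaB consensus, searched on both strands, was in 9.96% of all promoters and in 0 of those of the members, which says only that these letters are absent from this window. The promoters with the fewest and the most CG dinucleotides are shown, on the strand of the gene, for BCL2A1 at chr15:79971197-79971446 (minus strand) and PMAIP1 at chr18:59899746-59899995 (plus strand), with the CG dinucleotides in capitals. The window of BCL2A1 adjoins the end of the gene as the deposited table lists it and lies inside the gene as GENCODE release 29 draws it, which ends at 79971446. Those of BCL2 (chr18:63319770-63320019) and BCL2L11 (chr2:111120664-111120913) lie inside their genes as listed. Some windows of other members overlap their genes in part or in full.
BCL2A1: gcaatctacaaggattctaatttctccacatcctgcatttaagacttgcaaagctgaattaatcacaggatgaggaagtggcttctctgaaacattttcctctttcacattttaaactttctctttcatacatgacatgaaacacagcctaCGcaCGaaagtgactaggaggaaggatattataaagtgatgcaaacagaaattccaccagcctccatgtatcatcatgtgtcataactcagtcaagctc
PMAIP1: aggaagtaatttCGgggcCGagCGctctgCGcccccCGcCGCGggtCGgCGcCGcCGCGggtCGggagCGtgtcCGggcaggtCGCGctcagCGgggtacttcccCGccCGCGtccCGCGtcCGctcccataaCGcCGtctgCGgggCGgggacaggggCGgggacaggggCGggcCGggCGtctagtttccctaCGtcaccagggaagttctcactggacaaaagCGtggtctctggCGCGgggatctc

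PMAIP1, with the CG-rich promoter, was within 1.19-fold between the lines, and BCL2A1, with the CG-poor one, had the highest fold of the 9 members. BCL2 and BCL2L11 also had CG-rich windows, which lie inside their genes, and differed by 7.82-fold and 2.59-fold. BAX with 25 CG dinucleotides, BAK1 with 5 and BCL2L1 with 17 and 12 differed by 1.79-fold, 1.63-fold and 1.81-fold. BID, with 4 to 30 over its listed starts, differed by 1.53-fold. The part of CG content in the values was not tested.

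The members lie on 8 chromosomes. BCL2 (ENSG00000171791) is listed on GRCh38 at chr18:63123346-63320128 and PMAIP1 (ENSG00000141682) on the same chromosome at chr18:59899996-59904305. BCL2L1 (ENSG00000171552) is listed at chr20:31664452-31723989, BCL2L2 (ENSG00000129473) at chr14:23298790-23311751 and BCL2A1 (ENSG00000140379) at chr15:79960892-79971196. BAX (ENSG00000087088) is listed at chr19:48954815-48961798, BAK1 (ENSG00000030110) at chr6:33572547-33580293, BCL2L11 (ENSG00000153094) at chr2:111119378-111168445 and BID (ENSG00000015475) at chr22:17734138-17774770. In GENCODE release 29, BCL2L2 shares its strand with the read-through gene BCL2L2-PABPN1, whose reads cannot be separated from its own by strand. BCL2 and BID share theirs with a noncoding gene inside them, AC022726.1 and MIR3198-1. On the opposite strand, BCL2 and BCL2L1 overlap antisense genes, BCL2L11 overlaps MIR4435-2HG, BAK1 overlaps the pseudogene GGNBP1, and BCL2L2 overlaps HOMEZ and PPP1R3E. The libraries were directional, but whether the TPM values use the strand is not given in the sources used here. BAX, BCL2A1 and PMAIP1 overlap no other gene.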

How the data were processed

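Total RNA of both untreated lines, RC77 T/E and MDA PCa 2b, was made into paired-end directional libraries, 1 per cell line. The authors deposited TPM per locus with the mean and standard error of both lines. Per the labels, their processing notes name CASAVA, FastQC 0.11.9, Trimmomatic 0.38, Salmon 1.2.0 and GRCh38, and the role of each and the annotation are not given in the sources used here. The table has 22791 rows and 22704 loci, and loci of one symbol were summed. The deposited TPM columns lack the decimal mark in 10361 values of MDA PCa 2b and 11082 of RC77 T/E, so they were not plain TPM as the design had assumed. Positions that leave no more than 3 digits ahead of the mark and 3 or more behind it were kept when they gave the listed mean and standard error. This left 1 position in 16284 rows. The supplementary table of the study set the position, and no value, for 683 further rows. The mark could not be placed for 5809 loci, where the lowest position was used for counts. The restoration was tested on simulated data written by the same rule, which cannot show that the deposited values follow that rule. Of the rows left with 1 position, 1315 were also in the supplementary table, and the position was the same in 1315.

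The study asked for a mean of 1 TPM over its samples and for expression in a set share of them. Here 1 TPM was applied to the mean for ratios and to each line for counts of expressed genes, so BCL2 counts in MDA PCa 2b although its mean is lower. With 1 library per cell line, no test was made, and a difference was counted at 2-fold on the scale of log2 of TPM plus 1 among genes whose mean reached 1 TPM. Depth is unknown, so no interval for counting error can be given. The members, the lists (other family members, BCL2-related, apoptosome and caspase, inhibitor of apoptosis, death receptor, ubiquitin enzyme, VDAC and NF-kappaB target genes, and cell type markers) and the alternatives were chosen with earlier results of these data known. By the rule for named genes, any member or list gene could be named. MARCHF5, a listed ubiquitin ligase, was not analysed here, and the single values of a few other listed genes are not reported here. Alternatives concern the threshold, the pseudocount, scaling, loci, the fold and the decimal mark. Python 3.11.15 with numpy 2.4.6, pandas 2.3.3 and matplotlib 3.10.9 was used.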

Additional observations from a re-analysis of the deposited data

How the results depend on the processing

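No paired analysis was possible because there is a single library for each cell line, and no library could be left out. At thresholds of 0.5 and 5 TPM, the members expressed were 8 and 7 in MDA PCa 2b against 8 and 6 in RC77 T/E. Members higher by 2-fold or more in RC77 T/E were 1 as reported and 4 at 1.5-fold. Those higher in MDA PCa 2b were 1 as reported, 0 after centring on the median, 0 after upper quartile scaling, 2 with every member above 0 TPM counted, and 4 when the commas were read as digit grouping. That last reading also reversed BCL2L1, to a log2 ratio of -2.47, and PMAIP1, to -3.08. Among the alternatives above, the share of all genes was counted only after centring, at 16.4% toward MDA PCa 2b. For the other alternative counts that share was not counted, so they do not show whether the members differ from all genes. Centring and upper quartile scaling kept the direction of all 9 members. The highest decimal mark and the largest locus could not alter any member, since each has 1 locus and a placed mark. A pseudocount of 0.1 TPM moved BCL2 to -2.42 and BCL2A1 to 4.97. The log2 ratio of the anti-apoptotic to the pro-apoptotic sum was 0.16 in MDA PCa 2b against 0.21 in RC77 T/E. As a difference of mean log2 values it was -1.03 and -0.49, and with the other family members added -0.88 and -0.13, in the same order. The difference between the lines was then 0.75 in place of 0.045. The sign of this ratio thus depends on its definition. Depth is unknown, which limits the low values of BCL2 and BCL2A1 most.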

Other observations

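Of 6 genes related to BCL2 by sequence or by a BH3-like region, BNIP3 was at least 2-fold higher in MDA PCa 2b, while 0 were so in RC77 T/E. Shares over the 11624 genes were 20.1% and 19.4%. BNIP3, a gene of mitophagy that responds to low oxygen, was at 116.9 TPM in MDA PCa 2b against 27.8 TPM in RC77 T/E, 4.20-fold higher in MDA PCa 2b and above all 9 members there. Its relative BNIP3L was at 19.9 TPM in MDA PCa 2b against 20.5 TPM in RC77 T/E. BCL2L12 was at 18.9 and 28.6 TPM and BCL2L13 at 20.0 and 12.2 TPM. BCL2L14 was at 0.607 TPM in MDA PCa 2b but listed at 0 in RC77 T/E, and BCL2L15 was at 0.0276 and 0.0485 TPM.

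The 3 VDAC genes, which encode channels of the outer mitochondrial membrane, differed by less than 2-fold. VDAC1 was at 117.6 TPM in MDA PCa 2b against 103.4 TPM in RC77 T/E, and VDAC2 at 91.7 and 117.9 TPM. Of the 4 genes analysed for enzymes that add or remove ubiquitin on MCL1 protein, FBXW7 was 2.46-fold higher in RC77 T/E, at 4.56 or 45.6 TPM in MDA PCa 2b against 11.2 or 112.1 TPM in RC77 T/E, and HUWE1, USP9X and BTRC differed by less than 1.5-fold.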
